A study of Mus musculus with 12 samples.

Results

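The 8 genes described here encode 7 small leucine-rich proteoglycans (decorin, Dcn; biglycan, Bgn; asporin, Aspn; lumican, Lum; fibromodulin, Fmod; Prelp; and osteoglycin, Ogn) and dermatopontin (Dpt). They were taken by name from the 38924 genes counted in 12 bulk RNA sequencing libraries, and all 8 were among the 16953 genes that passed the filter on low counts. The study sorted cells from C57BL/6 mice that carried the ROSAmTmG reporter with either Myf5-Cre or Ucp1-iCre. The reporter switches a cell and its descendants from membrane tdTomato to membrane GFP once the recombinase has acted, so GFP records past as well as present activity of the Myf5 or Ucp1 driver. Each line gave 3 groups of 2 libraries. Mammary myoepithelial cells, the contractile basal layer of the milk ducts and alveoli, were gated as lineage-negative, CD24-positive and CD29-high at lactation day 10 and split into GFP-positive (here "Myf5 GFP+" or "Ucp1 GFP+") and GFP-negative cells. GFP-positive brown adipocytes, the heat-producing fat cells, came from virgin females 8 weeks old. Mammary and fat cells therefore differed in reproductive state as well as in tissue, and these differences cannot be told apart. The labels do not say whether the 2 libraries of a group came from separate animals or pools, and p-values here describe the spread of these libraries alone.

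Small leucine-rich proteoglycans are secreted proteins whose curved repeat domain binds collagen fibrils and sets their spacing and diameter. Decorin, biglycan and asporin are class I members, and lumican, fibromodulin and Prelp are class II members. Several members carry sugar chains, and several also hold growth factors such as TGF-beta near cells. Dermatopontin has no leucine-rich repeats; it is a small matrix protein that binds decorin and speeds collagen fibril assembly. In most tissues fibroblasts are the main source of these proteins, and the mammary and fat stroma are rich in them.

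Several members lie in clusters or near a relative on the mm10 genome. On chromosome 10, Dcn (chr10:97479609-97518143) is followed by Lum (chr10:97565128-97572703), then Kera and Epyc, all on the plus strand. On chromosome 13, also on the plus strand, the order is Ecm2 (chr13:49504810-49532789), Aspn (chr13:49544443-49567565), Omd (chr13:49582462-49592822) and Ogn (chr13:49608046-49624501). Prelp (chr1:133910304-133921414, minus strand) lies next to Optc, and Fmod (chr1:134037254-134048277) follows farther along the same chromosome. Fmod, Dpt (chr1:164796644-164824266) and Bgn (chrX:73483602-73495933) are on the plus strand. These are whole gene spans of the GENCODE M21 annotation, exons and introns together, and all 8 are protein-coding.

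The promoters of the chromosome 13 cluster are shown because its 4 genes parted in the Ucp1 GFP+ cells: Ecm2 and Aspn kept a level close to that of GFP-negative cells, and Omd and Ogn were at or near 0. Omd was already low in the GFP-negative cells of that line, with 111 and 23 counts. Each sequence is the 250 bases before the RefSeq start (GRCm38.p6, plus strand), at chr13:49504560-49504809 for Ecm2, chr13:49544193-49544442 for Aspn, chr13:49582212-49582461 for Omd and chr13:49607765-49608014 for Ogn. Capitals mark matches, on either strand, to a TATA box (TATAAA), a GC box (GGGCGG), an MCAT element (CATTCC) or an AP-1 site (TGANTCA).
Ecm2: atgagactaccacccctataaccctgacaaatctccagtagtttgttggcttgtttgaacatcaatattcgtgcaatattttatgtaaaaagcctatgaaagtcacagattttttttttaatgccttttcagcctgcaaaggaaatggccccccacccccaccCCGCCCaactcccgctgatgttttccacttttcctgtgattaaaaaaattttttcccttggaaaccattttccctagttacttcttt
Aspn: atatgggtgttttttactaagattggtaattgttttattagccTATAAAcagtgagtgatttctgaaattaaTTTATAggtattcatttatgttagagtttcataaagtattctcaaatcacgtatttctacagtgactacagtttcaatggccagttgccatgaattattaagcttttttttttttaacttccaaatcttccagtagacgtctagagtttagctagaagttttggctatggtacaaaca
Omd: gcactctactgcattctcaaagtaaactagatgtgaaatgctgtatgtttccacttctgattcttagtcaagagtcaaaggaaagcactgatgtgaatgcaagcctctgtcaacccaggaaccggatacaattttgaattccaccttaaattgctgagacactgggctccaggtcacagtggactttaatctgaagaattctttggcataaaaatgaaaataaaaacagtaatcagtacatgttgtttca
Ogn: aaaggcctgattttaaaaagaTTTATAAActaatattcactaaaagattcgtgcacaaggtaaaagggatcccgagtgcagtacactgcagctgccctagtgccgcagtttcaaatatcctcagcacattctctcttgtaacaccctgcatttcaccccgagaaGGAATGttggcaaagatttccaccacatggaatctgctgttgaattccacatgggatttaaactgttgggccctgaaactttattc

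Both Aspn, which kept its level, and Ogn, which did not, held TATA box matches. Those of Aspn lay 207 and 178 bases before the start, and those of Ogn, which overlap each other on opposite strands, lay 229 and 227 bases before it. The Ecm2 window held a GC box 87 bases before the start, the Ogn window an MCAT match at 86 bases, and the Omd window none of these. In all 32851 RefSeq promoters of this length, 12.4% held the TATA letters, 32.7% the GC box, 12.6% the MCAT element and 6.75% the AP-1 site. None of the marked motifs separated the pair that kept its level from the pair that did not by being in both genes of one pair and in neither of the other. An E box (CANNTG), not marked, was in the Aspn and Ogn windows and in 66.2% of all promoters. Of the 8 genes, 6 had a promoter entry; Dcn and Lum were not among them. Bgn was the only one of those 6 with a GC box, in a window of 64.4% G and C against 30.0% for Aspn. It held 3 matches, at 34, 10 and 6 bases before the start, and those at 10 and 6 bases overlap each other.

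The libraries held 11027738 to 32956480 counts each. The Ucp1 GFP+ libraries stood apart from the rest: 10909 and 10560 genes had a count there, against 13761 to 19794 in the other libraries, and their replicate correlation was 0.731 (log2 of CPM + 1, tested genes) against 0.879 to 0.990 in the other groups. CPM, the usual library-scaled read count, were computed with TMM factors. Marker lists were used to describe the sorted libraries. The keratins Krt5 and Krt14, which define basal mammary cells, had no count in any brown adipocyte library and 179 to 831 CPM in the GFP-negative mammary libraries, but only 3.99 to 54.4 CPM in the Myf5 GFP+ libraries and 56.1 to 162 CPM in the Ucp1 GFP+ libraries. Ucp1 transcripts were at 0 in all 4 GFP-positive mammary libraries and at 950 to 16436 CPM in brown adipocytes. The summed level of 16 fibroblast markers was 30438 to 33701 CPM in the Myf5 GFP+ libraries, 1097 to 1955 CPM in Ucp1 GFP+, 2249 to 3010 CPM in Myf5 GFP-negative and 6377 to 7438 CPM in Ucp1 GFP-negative libraries. The 8 endothelial markers summed to 5491 to 8235 CPM in Ucp1 GFP+ libraries, above the 12 myoepithelial markers there at 2379 to 3779 CPM. Endothelial sums were 857 to 1266 CPM in Myf5 GFP+ and 3397 to 5116 CPM in GFP-negative mammary libraries. The 12 luminal and milk genes summed to 16179 to 37169 CPM in GFP-positive and 57836 to 118033 CPM in GFP-negative mammary libraries. In such bulk samples, fewer cells of a type and less RNA per cell cannot be told apart. These marker levels move with several results below, and their part in them was not tested.

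Of the class I genes, Dcn, whose product binds collagen and TGF-beta, stood at 10862 and 3572 CPM in the Myf5 GFP+ libraries, 489 and 228 CPM in Myf5 GFP-negative, 80.1 and 58.2 CPM in Ucp1 GFP+ and 548 and 415 CPM in Ucp1 GFP-negative libraries. In brown adipocytes it was at 11.8 and 3.21 CPM in the Myf5 line and 12.1 and 6.80 CPM in the Ucp1 line. The Myf5 GFP+ libraries were thus the highest, the 4 GFP-negative libraries overlapped between lines, the Ucp1 GFP+ libraries lay below them all, and the 2 brown adipocyte groups were lowest and overlapped.

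Bgn, a close relative of decorin that can also signal through toll-like receptors, was at 3105 and 2507 CPM in Myf5 GFP+, 427 and 392 CPM in Myf5 GFP-negative, 167 and 133 CPM in Ucp1 GFP+ and 454 and 408 CPM in Ucp1 GFP-negative libraries. Brown adipocytes held 4.03 and 2.11 CPM in the Myf5 line and 46.1 and 33.9 CPM in the Ucp1 line. The order was that of Dcn, except that the 2 brown adipocyte groups did not overlap.

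Aspn, a class I protein named for a run of aspartates, was at 1528 and 562 CPM in Myf5 GFP+, 191 and 42.7 CPM in Myf5 GFP-negative, 157 and 127 CPM in Ucp1 GFP+ and 131 and 144 CPM in Ucp1 GFP-negative libraries. Brown adipocytes held 2.44 and 1.28 CPM in the Myf5 line and 49.8 and 28.7 CPM in the Ucp1 line. The 3 mammary groups other than Myf5 GFP+ overlapped, and the Ucp1 brown adipocytes reached into the range of the Myf5 GFP-negative cells.

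Among class II genes, Lum, whose keratan sulfate-bearing product keeps collagen fibrils thin, was at 2680 and 909 CPM in Myf5 GFP+, 106 and 13.2 CPM in Myf5 GFP-negative and 119 and 83.5 CPM in Ucp1 GFP-negative libraries. The Ucp1 GFP+ libraries held 4 and 3 Lum counts, or 0.147 and 0.0728 CPM. Brown adipocytes held 1.71 and 1.19 CPM in the Myf5 line and 5.99 and 1.62 CPM in the Ucp1 line. Ucp1 GFP+ cells were therefore the lowest group for Lum, under the brown adipocytes.

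Fmod, which binds the same region of collagen as lumican and helps to guide its crosslinking, was at 149 and 343 CPM in Myf5 GFP+, 88.3 and 227 CPM in Myf5 GFP-negative and 167 and 157 CPM in Ucp1 GFP-negative libraries, and these 3 groups overlapped. The 2 Ucp1 GFP+ libraries disagreed, with 655 counts (24.1 CPM) in replicate 1 and 0 counts in replicate 2. Fmod was near 0 in brown adipocytes, where no library held more than 6 counts.

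Prelp, which links basement membranes to the fibrous matrix, was at 562 and 587 CPM in Myf5 GFP+, 192 and 253 CPM in Myf5 GFP-negative, 46.6 and 165 CPM in Ucp1 GFP+ and 186 and 157 CPM in Ucp1 GFP-negative libraries. Unlike the other members it was high in brown adipocytes of the Myf5 line, at 238 and 251 CPM, and stood there at 41.4 and 78.7 CPM in the Ucp1 line. The Myf5 brown adipocytes overlapped the Myf5 GFP-negative mammary cells. Reads of Prelp are less certain than those of the other members: 14.81% of the 31-base stretches of its transcript also occur in other genes, on either strand. The antisense gene Gm15851 shares 350 exon bases with it, and stretches in that overlap are part of this percent. Gm15851 held 418 and 640 counts in Myf5 brown adipocytes and 94 and 251 in Ucp1 brown adipocytes, against at most 5 in any mammary library. The strand setting of the counting is not given in the sources used here, so reads of the pair may not be told apart.

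Ogn, the class III member also called mimecan, was at 947 and 425 CPM in Myf5 GFP+, 13.4 and 12.5 CPM in Myf5 GFP-negative and 53.3 and 29.2 CPM in Ucp1 GFP-negative libraries. The Ucp1 GFP+ libraries held 1 and 0 Ogn counts, and brown adipocytes held 0.244 and 0 CPM in the Myf5 line and 2.10 and 0.765 CPM in the Ucp1 line. The 3 leading groups did not overlap one another.

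Dpt was at 500 and 220 CPM in Myf5 GFP+, 15.4 and 9.67 CPM in Myf5 GFP-negative and 21.5 and 19.3 CPM in Ucp1 GFP-negative libraries. The Ucp1 GFP+ libraries held 0 and 1 Dpt counts. Brown adipocytes held 7.20 and 4.67 CPM in the Myf5 line and 3.15 and 4.68 CPM in the Ucp1 line, so for Dpt too the Ucp1 GFP+ cells were the lowest group.

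**Figure D1:**
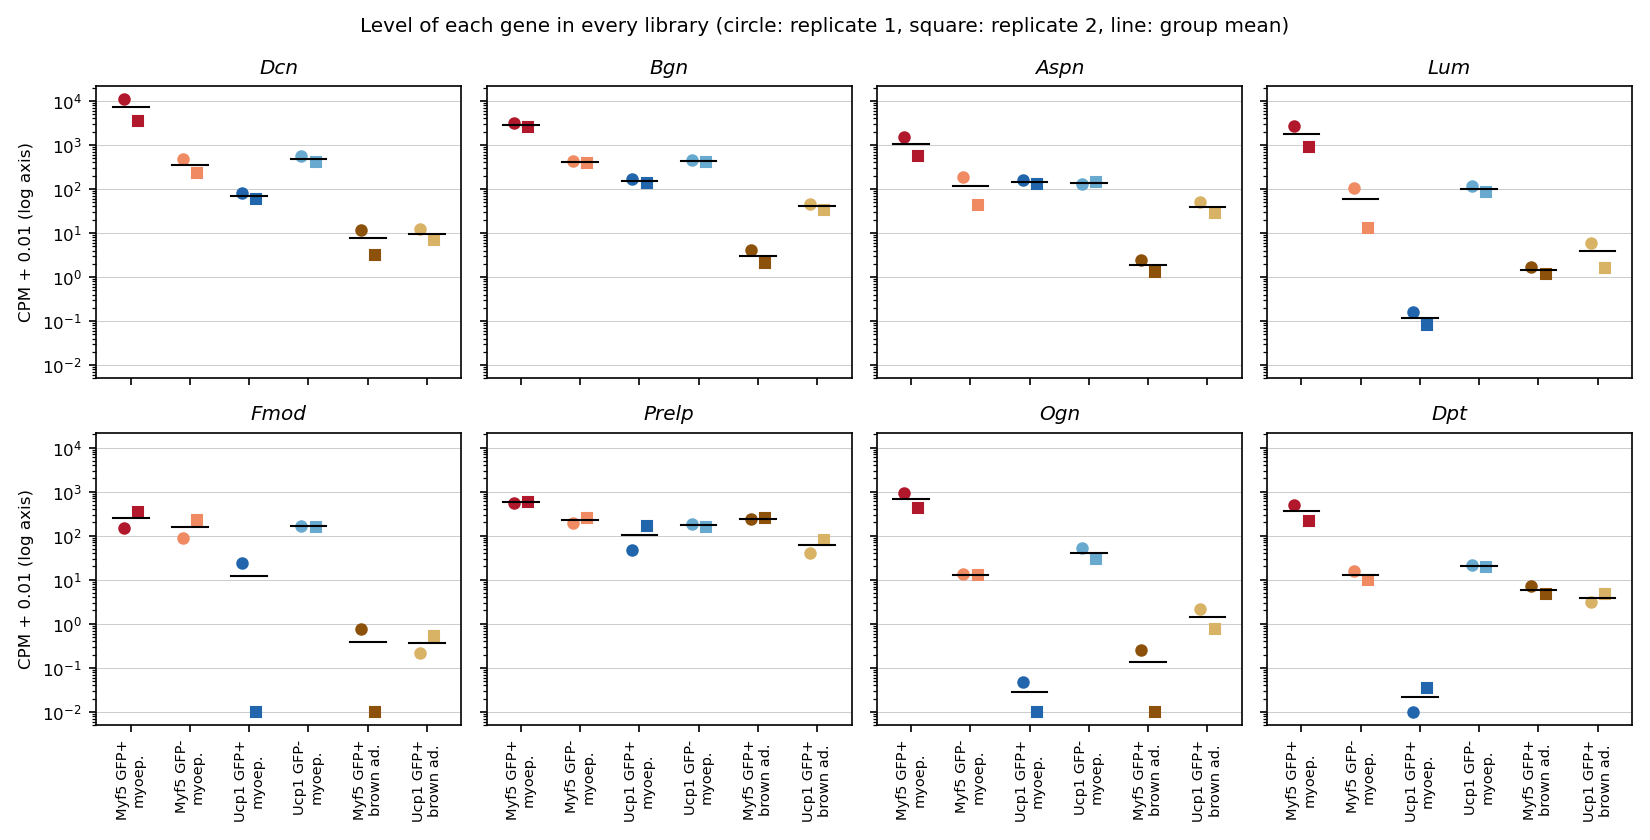
Each panel plots 1 gene as CPM plus 0.01 on a log axis, by group (myoep., myoepithelial; ad., adipocytes), with a circle for replicate 1, a square for replicate 2 and a line at the mean. The Myf5 GFP+ libraries are the highest for every gene but Fmod, whose groups overlap, and Lum, Ogn and Dpt drop to 0 to 4 counts in both Ucp1 GFP+ libraries while Dcn, Bgn and Aspn do not.

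To compare genes with one another, CPM were divided by the length of the longest coding transcript in kilobases. Dcn then made up 61.3% and 47.9% of the summed level of the 8 genes in the Myf5 GFP+ libraries. In Ucp1 GFP+ libraries Bgn led with 34.0% and 29.3%, followed by Aspn with 33.3% and 28.9%, while Lum made up 0.0296% and 0.0158%. Prelp made up 81.8% and 91.5% of the sum in Myf5 brown adipocytes but 17.9% and 39.0% in Ucp1 brown adipocytes, where Aspn and Bgn took most of the rest. The summed level itself ran from 55.8 CPM per kb in a Ucp1 brown adipocyte library to 10076 CPM per kb in a Myf5 GFP+ library.

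**Figure D2:**
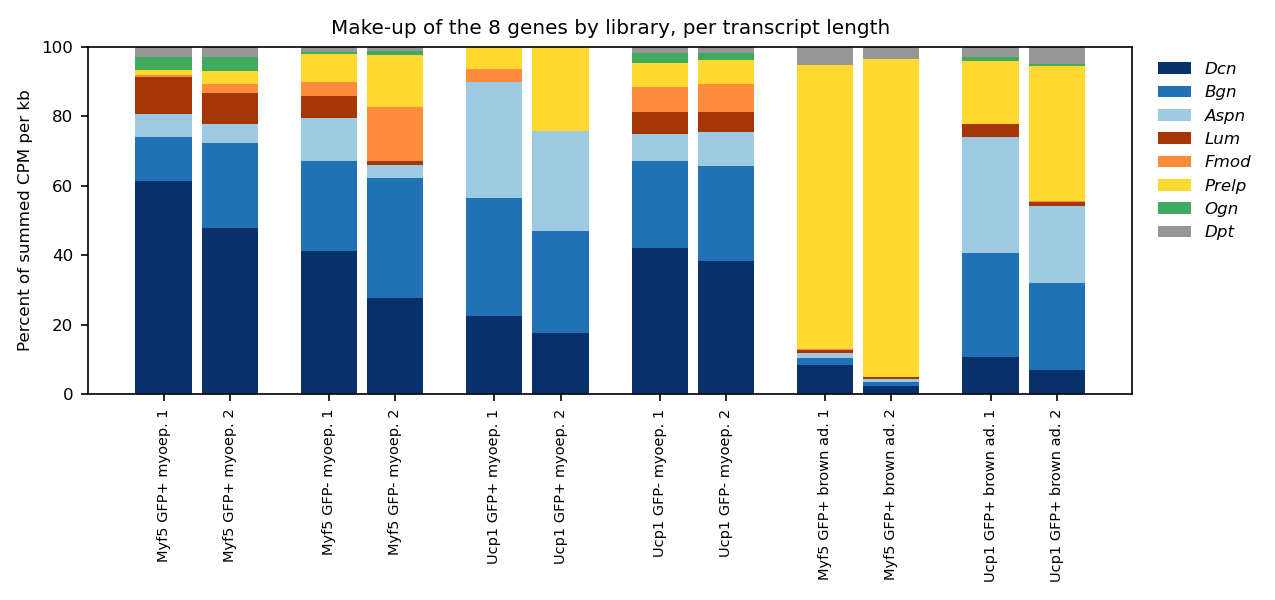
Stacked bars give each gene's percent of the summed CPM per kb of the 8 genes, 1 bar per library. Dcn leads both Myf5 GFP+ bars, Bgn and Aspn lead both Ucp1 GFP+ bars with no visible Lum, Ogn or Dpt, and Prelp fills 81.8% and 91.5% of the Myf5 brown adipocyte bars.

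The first comparison asked how mammary cells with the Myf5 label differ from those without it. Of the 8 members, 7 were higher in both Myf5 GFP+ libraries than in either GFP-negative library, all but Fmod, against 14.5% of all tested genes. None passed edgeR's quasi-likelihood test after Benjamini-Hochberg adjustment, in which 0.0% of all 16953 genes were called. Before adjustment, 7 of the 8 members had p under 0.05, against 9.28% of all genes. With DESeq2, 6 members were called (Dcn, Bgn, Aspn, Lum, Ogn and Dpt) against 3.13% of genes called higher. Without both Ucp1 GFP+ libraries, which share in the estimate of the spread, 4 were called (Dcn, Bgn, Ogn and Dpt) against 1.09% of genes called higher.

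By size, Ogn differed most, at 53.0-fold (log2 5.73, SE 0.95), then Lum at 30.0-fold (log2 4.91, SE 1.08), Dpt at 28.7-fold (log2 4.84, SE 0.69) and Dcn at 20.1-fold (log2 4.33, SE 0.82). Aspn followed at 8.93-fold, Bgn at 6.85-fold and Prelp at 2.58-fold. Fmod was 1.56-fold higher on average with an SE of 1.78 on the log2 scale, which is larger than its difference of 0.64. The median of the members was 3.74 on the log2 scale, against -0.06 for all tested genes. Of the 16 fibroblast markers, 14 were likewise higher without overlap, with a median of 4.38, and 10 of 12 basal and contractile myoepithelial markers were lower without overlap, against 20.2% of all genes. Of 8 pericyte markers 7 were higher without overlap, with a median of 2.39 and sums of 2963 to 3303 CPM against 533 to 747 CPM, and all 8 endothelial markers were lower without overlap. The part of these marker shifts in the members' difference was not tested.

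Other genes of the collagen matrix were set beside the members. Over all tested genes 14.5% were higher and 20.2% lower without overlap. Of 12 collagens tested, 10 were higher without overlap in Myf5 GFP+ cells, with a median of 3.18 and none called. Col3a1, a fibrillar collagen of soft tissue, averaged 3185 CPM against 152 CPM (log2 4.39, adjusted p = 0.212 in edgeR), and Col1a2 stood at 1471 and 2244 CPM against 71.1 and 79.6 CPM. Of 18 genes that process or crosslink collagen, 12 were higher without overlap, with a median of 1.80. Of 22 tested genes that build chondroitin and dermatan sulfate chains, the chains carried by decorin and biglycan, 8 were higher and 3 lower without overlap, with a median of 0.70. Among 5 tested keratan sulfate genes none was higher and 2 were lower without overlap. Of 9 tested genes for other matrix proteoglycans, 1 was higher and 2 were lower without overlap, with a median of -1.12.

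The same question for the Ucp1 label gave the opposite direction. In Ucp1 GFP+ cells 5 members fell relative to GFP-negative cells of the same line, against 14.0% of tested genes called lower. Both Ucp1 GFP+ libraries lay below both GFP-negative libraries for 6 members, all but Aspn and Prelp, against 48.1% of all genes. Dpt, Ogn and Lum fell most. From summed counts, Lum was 992-fold lower (95% interval 481 to 2467), Ogn 2827-fold lower (507 to 111712) and Dpt 1394-fold lower (250 to 55119), and these intervals cover counting error only. Their adjusted p-values were 0.00208, 0.00131 and 0.00117 in edgeR. In the same test the log2 difference was -2.80 for Dcn (SE 0.77, adjusted p = 0.0408) and -1.52 for Bgn (SE 0.41, adjusted p = 0.0391).

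The remaining 3 did not pass. Aspn stood at 1.03 times its GFP-negative level (log2 0.04, SE 0.71, adjusted p = 1). Prelp differed by -0.69 (SE 0.57, adjusted p = 0.477) and Fmod by -3.75 (SE 1.98, adjusted p = 0.239), the latter with 1 library at 24.1 CPM and 1 at 0. The calls of Dpt, Ogn and Lum held in all 10 alternatives. Those of Dcn and Bgn were lost when any 1 of the 4 libraries compared was left out and with RLE factors in place of TMM, with adjusted p up to 0.136 for Dcn and 0.167 for Bgn. Bgn was also lost with no filter and without milk and mitochondrial genes. Fmod was called without Ucp1 GFP+ replicate 1 and Prelp without Ucp1 GFP+ replicate 2. TMM scaling put the median of all genes at -0.69 in this comparison and RLE at -0.51, so Bgn at -1.52 and Prelp at -0.69 are to be read against that median.

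**Figure D3:**
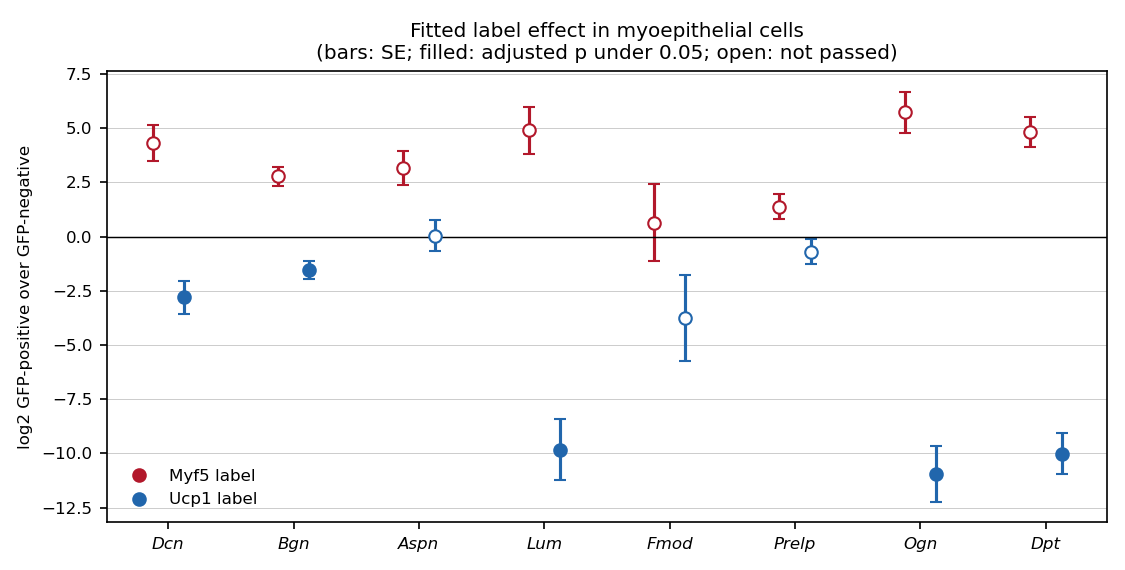
Points give the fitted log2 ratio of GFP-positive to GFP-negative mammary cells for each gene, red for the Myf5 line and blue for the Ucp1 line, with SE bars, filled where the adjusted p was under 0.05. Every Myf5 point is above 0 and unfilled, while 5 Ucp1 points are filled and below 0 and Aspn sits at 0.04; values near -10 belong to genes with 0 to 4 counts and depend on the fit's prior count.

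Low counts were common in the Ucp1 GFP+ libraries, so the level at which a gene vanishes matters. Of the genes at 10 to 50 CPM in the GFP-negative cells of that line, where Ogn and Dpt lie, 10.8% (575 of 5325) had at most 4 counts in both Ucp1 GFP+ libraries. Of those at 50 to 200 CPM, where Lum, Aspn, Fmod and Prelp lie, 0.687% (19 of 2767) did, and Lum was among them. Of the 566 genes at 200 to 1000 CPM, where Dcn and Bgn lie, none did. The loss of Lum was thus shared by few genes of its level, and those of Ogn and Dpt by many more.

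Neighbouring family members parted in these cells. The ratio of Dcn to Lum counts was 545 and 799 in the 2 Ucp1 GFP+ libraries and between 2.02 and 17.3 in the other 10. Aspn held 4278 and 5218 counts in the same libraries where Ogn held 1 and 0. Next to Aspn, Ecm2, a gene for a matrix protein with leucine-rich repeats, was at 46.1 and 39.8 CPM in Ucp1 GFP+ and 42.9 and 36.5 CPM in Ucp1 GFP-negative cells (log2 0.11, adjusted p = 0.947 in edgeR). Omd, the osteomodulin gene next to Ogn, was low in Ucp1 GFP-negative cells, at 3.34 and 0.703 CPM. That level is below the ranges in which losses were counted above. Omd had no counts in Ucp1 GFP+ cells and was at least 46.3-fold lower than in GFP-negative cells, taking 3 counts over the 2 libraries as the floor. Podn, a podocan gene on another chromosome, likewise had no counts and was at least 279-fold lower. Omd and Podn were the called genes among 9 tested relatives outside the 8, with adjusted p of 0.0269 and 0.00139. The difference between the members' own changes was not tested, and with 2 libraries against 2 an exact permutation test of a ratio could not give a p under 0.333.

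**Figure D4:**
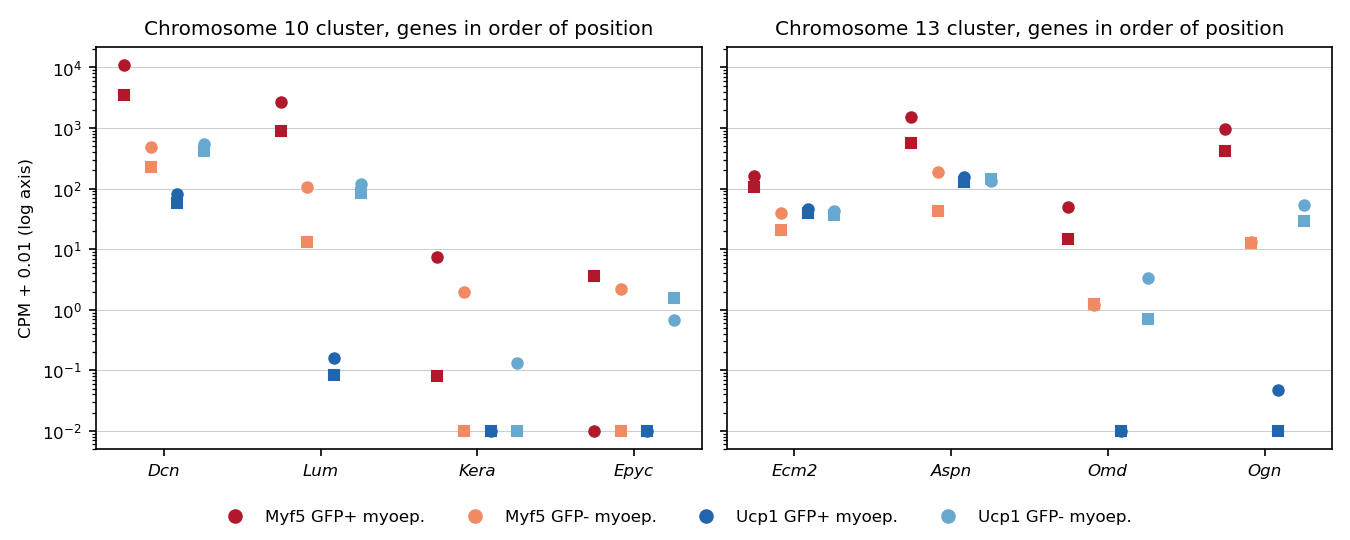
Levels of the 4 genes of each cluster are plotted as CPM plus 0.01 on a log axis for the 4 mammary groups, genes in order of position, circles for replicate 1 and squares for replicate 2. In dark blue (Ucp1 GFP+), Dcn, Ecm2 and Aspn stay at 39.8 CPM or more in both libraries, while Lum, Omd and Ogn lie at 4 counts or fewer.

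Other matrix genes were set beside this comparison, in which 14.0% of all tested genes were called lower and the median of all genes was -0.69. Of 18 collagen-processing genes 4 fell, with a list median of -1.18: Pcolce2, an enhancer of procollagen cleavage (0 against 10.9 CPM), the crosslinking enzymes Lox (0 against 22.0 CPM) and Loxl1 (0.0121 against 10.9 CPM), and Adamts3 (0 against 2.94 CPM). In chondroitin and dermatan sulfate synthesis 4 of 22 fell, with a median of -0.29, a count close to that share of all genes. They were Dse, the epimerase that makes dermatan sulfate (0.0121 against 16.1 CPM), B4galt7, an enzyme of the linker between protein and chain (0.115 against 13.8 CPM), Chpf (0 against 43.2 CPM) and Ust (0 against 10.2 CPM). Of 12 collagens, Col12a1 and Col11a1 fell, both at 0 in both Ucp1 GFP+ libraries, again a count close to that share, and the median was -1.85. Without overlap, 9 of the 12 collagens were lower and 0 higher, against 48.1% of all genes lower. Of the 18 collagen-processing genes, 11 were lower and 1 higher without overlap. Of 9 tested genes for other matrix proteoglycans, 8 were lower and 0 higher without overlap. Of these, 2 fell, and the list median was -3.76. Of 18 receptors and growth factors that these proteoglycans bind, 5 fell, with a median of -1.33. The 4 of smallest adjusted p were Egfr, a receptor that decorin binds (0 against 27.1 CPM), the growth factor Bmp4 (0 against 5.50 CPM), Tlr2, a biglycan receptor (0 against 48.9 CPM), and Met (0.0184 against 5.37 CPM). Of 10 proteases that can cut these proteoglycans, the collagenase Mmp13 fell (0.213 against 65.5 CPM), and the median was -1.38. Without overlap 6 of these proteases were lower, against 48.1% of all genes, and 2 were higher. Mmp13 aside, the called genes named from these lists averaged under 50 CPM in the GFP-negative cells of the Ucp1 line. Of all genes at 10 to 50 CPM there, 10.8% had at most 4 counts in both Ucp1 GFP+ libraries. Adamts3, Col11a1, Bmp4 and Met lay below that range. Col1a1, the main fibrillar collagen and a fibroblast marker, was at 77.4 and 0.0728 CPM in the 2 Ucp1 GFP+ libraries and 525.6 and 451 CPM in GFP-negative cells, and did not pass (adjusted p = 0.233 in edgeR).

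Markers of other cell types also differed with the Ucp1 label, where 48.1% of all genes were lower without overlap. Of 16 fibroblast markers 14 were lower without overlap and 6 fell, with a median of -3.19. All 8 immune markers were lower without overlap, 3 of them called, with a median of -7.73 and sums of 9.74 to 32.97 CPM against 158 to 209 CPM. All 12 luminal and milk genes were lower without overlap, with 4 called. Of 12 myoepithelial markers 11 were lower without overlap, with 2 called, and of 8 pericyte markers 7 were, with none called. No endothelial marker was lower without overlap, with a median of 0.29 and sums of 5491 to 8235 CPM against 5053 to 5116 CPM. The part of these shifts in the members' fall was not tested.

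The difference of the label effects between the lines was then tested directly. Of the members, 5 passed, all more positive in the Myf5 line, against 10.7% of tested genes called in that direction. The difference was 7.13 on the log2 scale for Dcn (SE 1.12, adjusted p = 0.00424 in edgeR) and 4.30 for Bgn (SE 0.60, adjusted p = 0.00275). It was 14.73 for Lum, 16.67 for Ogn and 14.85 for Dpt, values that depend on the prior count because the Ucp1 GFP+ counts were 0 to 4. These 5 calls held in all 14 alternatives, with the highest adjusted p at 0.0302. Aspn (3.11, SE 1.03, adjusted p = 0.0953), Prelp (2.06, SE 0.81, adjusted p = 0.157) and Fmod (4.39, SE 2.62, adjusted p = 0.373) did not pass. Aspn passed with the replicate block and without Myf5 GFP-negative replicate 1. Fmod passed without Ucp1 GFP+ replicate 1 and Prelp without Ucp1 GFP+ replicate 2. Of 12 collagens 6 passed, and of 16 fibroblast markers 9, in that direction.

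The GFP-positive mammary cells of the 2 lines were also compared directly. Relative to Myf5 GFP+ cells, 7 members fell in Ucp1 GFP+ cells, all but Fmod, against 15.2% of tested genes called lower. This comparison shares its libraries with those above. The log2 difference was -6.71 for Dcn (SE 0.92, adjusted p = 0.00162 in edgeR), -4.22 for Bgn (SE 0.46, adjusted p = 0.000882), -2.88 for Aspn (SE 0.77, adjusted p = 0.0303) and -2.44 for Prelp (SE 0.60, adjusted p = 0.0216). From counts, Lum was 15126-fold lower (7341 to 37624), Ogn 41940-fold (7527 to 1656610) and Dpt 21964-fold (3941 to 867582). All 7 calls were lost when the 2 groups were fitted alone, where the adjusted p of Dcn, Bgn, Lum, Ogn and Dpt was 0.132. Aspn was also lost without Myf5 GFP+ replicate 1 or either Ucp1 GFP+ library, and Prelp without either Myf5 GFP+ library.

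The GFP-negative mammary cells of the 2 lines gave no call among the members, 0.0% of all tested genes being called by edgeR. No member had an unadjusted p under 0.05, and DESeq2 called none of the 8 and 55 genes in all. The largest difference was that of Ogn, 3.19-fold higher in the Ucp1 line (log2 1.67, SE 0.80).

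Mammary and brown fat cells were compared within and across lines. GFP-negative mammary cells, as the mean of both lines, exceeded brown adipocytes in 7 members, all but Prelp, against 14.6% of tested genes called higher. Ogn differed by 5.84 on the log2 scale, Dcn by 5.63, Bgn by 5.25, Lum by 5.05, Aspn by 3.90 and Dpt by 1.73 (adjusted p = 0.0176 in edgeR). Fmod, with 14 counts in the 4 brown adipocyte libraries together, was 466-fold higher in mammary cells (counting interval 278 to 852). Aspn passed although Myf5 GFP-negative replicate 2 lay within the range of Ucp1 brown adipocytes. Prelp differed by 0.69 (SE 0.40, adjusted p = 0.243). The call of Dpt was lost in 6 of 15 alternatives, all of them fits that left out 1 library: Myf5 GFP-negative replicate 1, either Ucp1 GFP-negative library, Myf5 brown adipocyte replicate 2 or either Ucp1 brown adipocyte library. Fmod was lost without either Ucp1 brown adipocyte library.

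In the Myf5 line, GFP-positive mammary cells exceeded brown adipocytes in 7 members, again all but Prelp, against 10.9% called higher; both comparisons use the Myf5 brown adipocyte libraries. Dcn differed by 9.91 (SE 1.06), Bgn by 9.84 (SE 0.59), Aspn by 9.14 (SE 1.03) and Dpt by 5.92 (SE 0.73), with adjusted p from 0.000452 to 0.00132 in edgeR. Prelp differed by 1.23 (SE 0.58, adjusted p = 0.158), and passed without both Ucp1 GFP+ libraries (adjusted p = 0.0468). Fmod (adjusted p = 0.0356) was lost when any 1 of the 4 libraries was left out and with the replicate block (adjusted p up to 0.173).

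In the Ucp1 line the members split. Against brown adipocytes of that line, Dcn (log2 2.87, SE 0.78, adjusted p = 0.0241 in edgeR) and Bgn (1.91, SE 0.42, adjusted p = 0.0105) rose in GFP-positive mammary cells, against 5.34% of genes called higher. Lum, Ogn and Dpt fell, against 22.5% called lower: Lum was 34.9-fold lower from counts (16.1 to 89.7), Ogn 93.2-fold (15.5 to 3807) and Dpt 273-fold (47.7 to 10915). Aspn differed by 1.86 (SE 0.74, adjusted p = 0.0893) and was higher in both mammary libraries than in either fat library; it passed with the replicate block (adjusted p = 0.0422). All 5 calls were lost when the 2 groups were fitted alone. Leaving out Ucp1 brown adipocyte replicate 1 ended the calls of Dcn and Lum, and leaving out replicate 2 those of Dcn and Bgn.

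Between the brown adipocyte groups, Bgn was 13.1-fold higher (log2 3.71, SE 0.46, adjusted p = 0.0171 in edgeR) and Aspn 21.2-fold higher (log2 4.40, SE 0.84, adjusted p = 0.0429) in the Ucp1 line than in the Myf5 line, 2 of 8 members against 1.29% of genes called higher. Ecm2, the neighbour of Aspn, had 147 and 128 counts in the Ucp1 line and none in the Myf5 line, at least 82.3-fold higher over the same floor (adjusted p = 0.0139). Prelp was lower in both Ucp1 libraries than in either Myf5 library (log2 -2.02, SE 0.59, adjusted p = 0.143), and was called by DESeq2 and without both Ucp1 GFP+ libraries. Dcn, Lum, Fmod and Dpt overlapped between the lines. Ogn was 13.02-fold higher from 29 and 2 counts (3.29 to 113) and did not pass (adjusted p = 0.184). The call of Aspn was lost when any 1 library was left out and with RLE factors, and that of Bgn without replicate 1 of either line.

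Markers of other cell types moved with that difference. Summed pericyte markers were at 442 to 685 CPM in Ucp1 and 121 to 127 CPM in Myf5 brown adipocytes, with 7 of 8 higher without overlap, against 31.3% of all genes, and 2 called. Summed endothelial markers were at 1692 to 3357 CPM against 14.3 to 373 CPM, with 8 of 8 higher without overlap and none called. The 16 fibroblast markers summed to 1809 to 1915 CPM against 1363 to 2345 CPM, but their members were split. Gsn, the actin-severing protein gelsolin, averaged 530 CPM in the Ucp1 line and 1720 CPM in the Myf5 line, where it made up most of the sum. Postn, a matrix protein, was called higher (179 against 5.89 CPM, adjusted p = 0.0171 in edgeR). Ly6a (28.9-fold, at 897 CPM in the Ucp1 line) and Cd34 (16.4-fold, at 213 CPM), which vessel cells also express, were higher without overlap and did not pass. Gsn, Ly6a and Cd34 were named after their values were seen. In all, 4 of the 16 were higher and 3 lower without overlap, with a median of -0.94. Adipocyte markers went the other way, 10 of 13 lower without overlap against 28.3% of all genes, Ucp1 itself being at 950 and 3312 CPM against 12573 and 16436 CPM. The part of these markers in the levels of Bgn and Aspn was not tested.

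Across the 12 libraries the members' profiles were alike to different degrees. The correlation of log2(CPM + 1) between a member and the mean of the other 7 was 0.970 for Dcn, 0.965 for Ogn, 0.937 for Lum, 0.893 for Bgn, 0.838 for Fmod, 0.830 for Dpt, 0.784 for Aspn and 0.594 for Prelp. These are descriptions over 12 libraries that fall into 6 groups, and the libraries share the differences in depth and cell make-up given above. Over the 9199 other genes that averaged 10 CPM or more, those most like the mean of the members were Thbs4, a matrix thrombospondin (r = 0.98, n = 12 libraries), Cilp, a cartilage matrix protein (0.98), Cyp1b1, a cytochrome P450 (0.98), Smoc2, a calcium-binding matrix protein (0.98), and Srpx (0.98). Smoc2 averaged 825 CPM in Myf5 GFP+, 0.165 CPM in Ucp1 GFP+ and 0.305 CPM in Myf5 brown adipocytes.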

How the data were processed

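The authors deposited 1 table of raw read counts per library, by Ensembl gene identifier. Per the labels' protocols, the steps were RNeasy Micro extraction, SMART-Seq amplification of cDNA and Illumina HiSeq sequencing; per the submitters' processing notes, TopHat, HTSeq, DESeq2 and mm10 were used. The sources used here give no versions, annotation release or strand setting. Symbols came from GENCODE M21 (37607 of 38924 genes). CPM were computed from the deposited counts with TMM-scaled library sizes. Tests used edgeR 4.0.16 in R 4.3.3: 1 quasi-likelihood fit of all 12 libraries with a mean per group, filterByExpr (minimum count 10), Benjamini-Hochberg adjustment over 16953 genes and a threshold of 0.05. DESeq2 1.42.0 was an alternative. The test was also run on simulated counts that had the same spread for every gene and group. The spread of these libraries was unequal, so that run does not show how the test performs here. Counting intervals are exact 95% intervals; a floor is 3 counts. The members and gene lists were chosen with earlier results of these data known. Besides the 8 members and relatives, up to 4 called genes of smallest adjusted p per list were named, or the 2 most abundant where none was called, and set markers. Replicates carry numbers but no stated pairing. Library depth was 11027738 to 32956480 counts.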

Additional observations from a re-analysis of the deposited data

Results flagged for a closer look

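For 5 of the 8 genes the effect of the GFP label differed between the Myf5 and Ucp1 lines by the test of the difference itself (edgeR quasi-likelihood test, Benjamini-Hochberg adjustment). Of all tested genes, 10.7% were called in that direction. The Myf5 effect minus the Ucp1 effect on the log2 scale was 7.13 for Dcn, with an adjusted p of 0.00424. It was 4.30 for Bgn, with an adjusted p of 0.00275. It was 14.73 for Lum (adjusted p = 0.0021), 16.67 for Ogn (0.00198) and 14.85 for Dpt (0.00198), where the Ucp1 GFP-positive libraries held 0 to 4 counts. In all 5 both Myf5 GFP-positive libraries were above both GFP-negative ones, and both Ucp1 GFP-positive libraries were below theirs. Of all tested genes, 14.5% were higher without overlap for the Myf5 label and 48.1% lower for the Ucp1 label. For the Myf5 label alone edgeR called none of the 5.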

How the results depend on the processing

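Of 821 comparisons of a member's result with an alternative, 717 kept direction and side of the threshold, 53 lost the call, 23 gained it and 28 changed sign; the cause was not tested. Low counts limit Lum, Ogn and Dpt in Ucp1 GFP-positive cells, where 0 to 4 counts set the size of a fold poorly. The counting interval of Ogn for the Ucp1 label ran from 507 to 111712. These libraries were not shallow, at 22313233 and 32956480 counts, but had the fewest genes with a count (10909 and 10560). SMART-Seq reads carry no molecular identifiers.

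Members called for the Myf5 label went from 0 to 4 without both Ucp1 GFP-positive mammary libraries and to 6 with DESeq2. For the Ucp1 label, 5 became 3 with RLE factors and 3 to 4 when 1 library was left out. Ucp1 GFP-positive mammary cells against brown adipocytes gave 0 in place of 5 when only those groups were fitted, and 3 to 6 when 1 library was left out. Brown adipocytes between lines gave 1 in place of 2 with RLE factors and 0 to 1 with 1 library left out. GFP-positive mammary cells between lines gave 0 in place of 7 when fitted alone, and 5 to 7 with 1 library left out.

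Values that changed sign, none of them past the threshold with the changed sign, were as follows on the log2 scale. With 1 library left out, Fmod ran from -0.092 to 1.48 for the Myf5 label and Aspn from -0.133 to 0.177 for the Ucp1 label, where Aspn was -0.026 with the replicate block and -0.0362 without GFP-negative replicate 1. Ucp1 GFP-positive mammary cells against fat gave Fmod from -6.03 to 6.00 and Prelp from -0.371 to 1.46. Between brown adipocytes, Dcn ran from -0.329 to 1.55 and was -0.136 without Ucp1 replicate 1. There Fmod ran from -0.985 to 6.13 and was -0.69 without Ucp1 replicate 2, -0.0571 with RLE factors and -0.151 with DESeq2. Between GFP-negative cells, Dcn ran from -0.0102 to 1.08, Aspn from -0.462 to 1.69, Lum from -0.0561 to 2.94 and Fmod from -0.49 to 0.886, with -0.0041 without Ucp1 replicate 1. There Bgn was -0.0378 with RLE factors, -0.0277 without the filter, -0.0459 without milk and mitochondrial genes, -0.0102 with the groups alone and -0.0382 with DESeq2. Fmod was -0.0573, -0.0728, -0.0883, -0.0583 and -0.0574 in the same order, and -0.0599 with the replicate block.

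The replicate block was tried although the labels only number the replicates. Same-numbered libraries deviated together in the Myf5 label comparison (r = 0.649 over 7801 genes) but hardly in the Ucp1 label comparison (0.087). The brown adipocyte groups came from different lines, so their value (-0.188) does not bear on pairs within a line. The labels state no pairs, and the numbers were not taken as pairs. The block was 1 replicate term over all 12 libraries, and pairs within the Myf5 line alone were not fitted. With the block, members called were 0 for the Myf5 label, 5 for the Ucp1 label, 6 for their difference, 6 and 6 for GFP-positive cells against fat in the Myf5 and Ucp1 lines, 2 between brown adipocytes and 7 between GFP-positive cells. Over all genes, the calls between brown adipocytes went from 223 to 76 with the block. The counts of all genes called over the alternatives ran from 0 to 800 for the Myf5 label, 1293 to 4320 for the Ucp1 label and 949 to 3740 for their difference.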

Other observations

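Several of the 11 relatives outside the 8 genes were seen in few libraries. Chad held counts only in the Ucp1 GFP-negative libraries (16 and 1), and Kera, Epyc and Omd held none in any brown adipocyte or Ucp1 GFP-positive library. Chadl was highest in brown adipocytes, at 23.2 and 29.9 CPM in the Myf5 line and 14.4 and 25.004 CPM in the Ucp1 line, and fell in Ucp1 GFP-positive mammary cells relative to brown adipocytes (log2 -4.34, SE 1.31, adjusted p = 0.0358 in edgeR's quasi-likelihood test). Nyx held 558 counts in Ucp1 GFP-positive replicate 1 and 0 in replicate 2, and at most 26 in any other library. Optc held 450 and 0 counts in those 2 libraries and 293 in Myf5 GFP-negative replicate 2. Fmod had the same imbalance in those libraries, with 655 and 0 counts. The driver gene Myf5 had 193 counts (12.02 CPM) in Myf5 GFP-positive mammary replicate 1, none in replicate 2 and 2 counts in all other libraries together.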
